A study of Mus musculus with 2 samples.

Results

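The genes described here are 35 genes of the Fanconi anemia pathway and of homologous recombination, the DNA repair routes that act on crosslinks between DNA strands and on broken chromosomes. They were taken by name: each gene row of the deposited tables was matched to a symbol through the GENCODE mouse annotation, and all 35 symbols were found among 43346 gene rows. The RNA came from G1E-ER4, an immortalized mouse erythroid line that lacks functional endogenous Gata1 and carries the transcription factor GATA1 fused to the estrogen receptor's ligand-binding domain. Cells had been given 10 nM 17beta-estradiol for 30 h, which activates the fusion protein and starts erythroid differentiation. Poly(A) RNA was read from both fragment ends in 2 libraries, labelled as biological replicates 1 and 2 of this single group. No untreated library was analysed here, so the values describe the differentiating state and carry no effect of estradiol. The labels name a postnatal male mouse as the origin and do not describe how the replicate cultures were kept apart. The p-values below therefore measure only the spread between these libraries, which may be technical.

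In the Fanconi pathway a core complex of several proteins attaches ubiquitin to the FANCD2-FANCI pair when a replication fork meets a crosslink, and the deubiquitinase USP1 takes the ubiquitin off again. The breaks that follow are trimmed to single-stranded DNA, prepared for strand exchange with the help of BRCA1, PALB2 and BRCA2, and paired with the sister chromatid, after which nucleases and helicases separate the joined molecules. Inherited loss of this pathway causes Fanconi anemia, a failure of blood formation in the bone marrow, and the kinases ATM, ATR, CHK1 and CHK2 signal the damage to the cell cycle.

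Levels are given as TPM, a measure per transcript length with an equal total in every library, and library differences as the log2 ratio of replicate 2 over replicate 1 of counts scaled for depth. All gene rows together held 73681318 expected counts in replicate 1 and 56056404 in replicate 2. The members held 43850 and 32923 of these counts, and 426.96 and 443.93 TPM. A count of 0 allows up to 3 counts. This floor, like every interval given here, covers counting error only. Of the erythroid markers checked, 11 of 11 reached 1 TPM in both libraries. The summed level of 10 myeloid markers was 0.32 TPM in replicate 1 and 11.51 TPM in replicate 2, with Ly6g and S100a8 at 0 in both. By the exact binomial test described below, the 4 myeloid markers tested (Mpo, Prtn3, Elane and Ctsg) were called higher in replicate 2. Of 11 erythroid markers, 7 were called lower and 4 higher. Of 4 megakaryocyte markers tested, 1 was called lower and 2 higher. Of 3 progenitor markers tested, 1 was called higher, and the 1 lymphoid marker tested was called lower. Over all genes, 30.4% were called lower and 28.9% higher. The part of these markers in the library differences below was not tested.

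Promoters of genes that act in DNA synthesis and repair often carry E2F-type motifs, the letters bound by the E2F family that switches on genes for S phase. The letters TTTCCCGC, TTTGGCGC, TTTCGCGC and TTTGCCGC were searched on both strands from 250 bases before to 50 bases after each start in the RefSeq promoter table (build GRCm38.p6), which held 26 of the 35 members. A match was found for 5 of 26 members (19.2%), namely Fancg, Bard1, Chek2, Rad51c and Brca2, beside 545 of 16317 protein-coding genes (3.34%) and 338 of 6077 protein-coding genes that reached 1 TPM in both libraries (5.56%). The other members searched held none of these letters in that window. Fancd2, Rad54b, Nbn, Exo1, Rbbp8, Rad50, Rad51d, Usp1 and Xrcc2 were not searched. The stretches below show the match, in capitals, for the members where it lay outside annotated exons. They span chr1:71103147-71103212 on the minus strand for Bard1, chr5:110839800-110839869 on the plus strand for Chek2 and chr5:150522422-150522491 on the plus strand for Brca2. Each is written in the direction of its gene.
Bard1: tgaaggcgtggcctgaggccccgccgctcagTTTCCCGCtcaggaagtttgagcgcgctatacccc
Chek2: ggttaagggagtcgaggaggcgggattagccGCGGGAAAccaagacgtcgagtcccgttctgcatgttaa
Brca2: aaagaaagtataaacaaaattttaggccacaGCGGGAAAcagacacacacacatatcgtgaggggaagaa
The motif began at position -209, -152 and -168 relative to the annotated start of Bard1, Chek2 and Brca2, and it lay on the other strand in Chek2 and Brca2. These 3 genes had mean levels of 3.40, 0.54 and 0.32 TPM. The match describes the letters and was not tied to binding.

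Most of the repair genes were expressed at low levels. The median over the 35 members was 2.45 TPM in replicate 1 and 1.33 TPM in replicate 2. Of the members, 20 reached 1 TPM in both libraries (57.1%), beside 35.3% of all protein-coding genes. Only 5 members (Usp1, Fance, Slx4, Mus81 and Blm) lay above 15.4 TPM, the median of the protein-coding genes that reached 1 TPM. The highest member, Usp1, stood 1457 times above Brip1, the lowest member with enough counts for a test. This span is by gene level over all transcripts, and most of the Usp1 level came from a short transcript described below. Ranked by mean level, 22 of 34 neighbouring pairs of members had library ranges that overlapped, and 12 did not. The 6 highest members, Usp1, Fance, Slx4, Mus81, Blm and Rad52, each had library values that did not overlap those of the next.

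**Figure D1:**
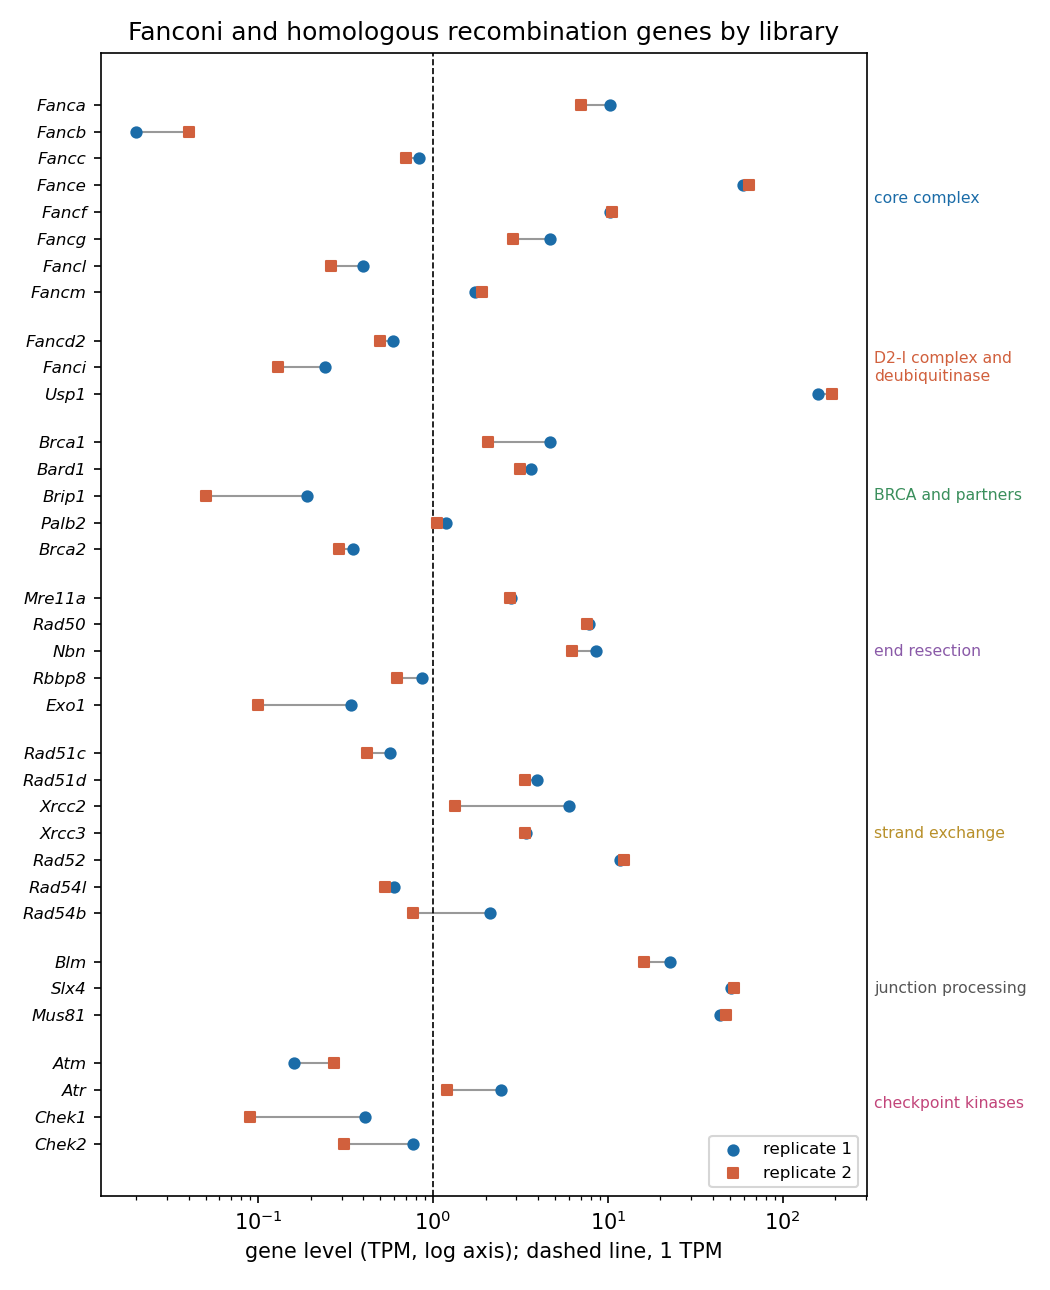
Level of each member in each library, in TPM on a log axis, grouped by pathway step, with the dashed line at 1 TPM, circles for replicate 1 and squares for replicate 2. The junction processing genes lie between 16.07 and 52.98 TPM in every library, while 3 of the 4 checkpoint kinases stay below 1 TPM in both.

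Much of the signal of several members came from transcripts not typed as protein-coding, or with a coding sequence shorter than the full one. GENCODE types each transcript, among others as protein-coding, as carrying a retained intron, or as a target of nonsense-mediated decay, the pathway that degrades messages with an early stop. Decay targets were not counted as full coding, whatever their coding length. Full coding transcripts were taken as the protein-coding ones whose coding sequence is at least 80% as long as the longest of the gene. Counted over these transcripts alone, 12 members (34.3%) reached 1 TPM in both libraries, beside 30.7% of protein-coding genes, and the median member level was 0.53 TPM. The leading transcript of the gene, the one with the largest share of TPM, was the same in both libraries for 15 of 17 members at 1 TPM with several annotated transcripts (88.2%), beside 88.9% of 5714 protein-coding genes chosen the same way. That leading transcript was not annotated as protein-coding for 8 of the 17 (47.1%), beside 28.1% of those genes. The exceptions to the same leader were Slx4 and Xrcc3.

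**Figure D2:**
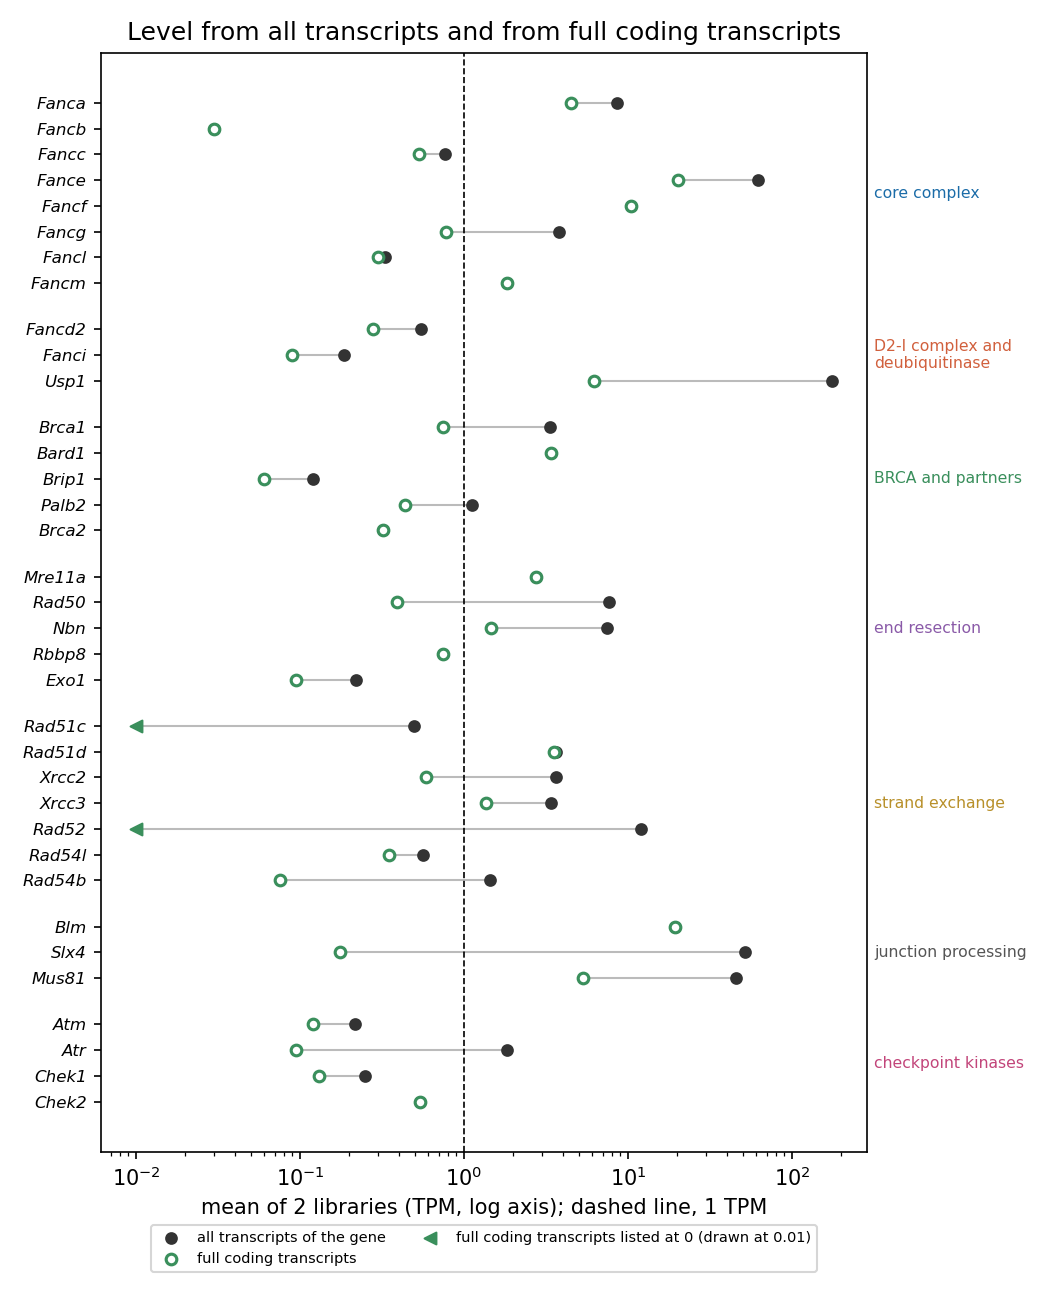
Mean level over the 2 libraries from all transcripts of a gene (filled circles) and from its full coding transcripts (open circles), in TPM on a log axis, with the dashed line at 1 TPM. Slx4 drops from 51.78 to 0.175 TPM, Usp1 from 174.8 to 6.19 TPM, and Rad51c and Rad52 are listed at 0 for full coding transcripts (triangles drawn at the left edge).

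The core complex had 5 of its 8 genes at 1 TPM in both libraries and a median of 2.80 TPM. Fance, which encodes the subunit that contacts FANCD2, led the complex with 59.58 TPM in replicate 1 and 64.56 TPM in replicate 2 (chromosome 17, 28313519 to 28326572, plus strand). Its full coding transcripts gave 13.05 and 27.3 TPM, and its leading transcript was a decay target of 1581 bases with 36.9% and 22.2% of the gene's TPM. Fancf, an adaptor subunit with a single transcript, had 10.23 and 10.59 TPM, so the libraries nearly coincided. Fanca, the subunit most often mutated in patients, had 10.23 and 7.02 TPM, of which 4.86 and 4.09 TPM came from the full coding transcript. That transcript held 83.5% and 88.3% of the Fanca counts. Exons of Fanca share 920 bases with Zfp276 on the opposite strand, which had 7.79 and 9.22 TPM.

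Fancg, a scaffold subunit that binds FANCA, had 4.69 and 2.87 TPM, and 65.7% ± 4.46 (SD, n = 2) of this was a 357-base transcript that is not protein-coding. By counts that short transcript held 16.1% and 12.7%, and the 2771-base coding transcript held 62.6% and 58.6%. Fancm, the DNA translocase that brings the complex to the crosslink, had 1.75 and 1.90 TPM. These 5 genes contrast with the rest of the complex, which stayed below 1 TPM. Fancc, a subunit that pairs with FANCE and FANCF, had 0.83 and 0.70 TPM. Fancl, the ubiquitin ligase of the complex, had 0.40 and 0.26 TPM from 38 and 24 counts, and its exons share 462 bases with Vrk2 on the opposite strand, which had 19.82 and 23.28 TPM. Fancb, the X-linked partner of FANCL, had 4 and 6 counts and 0.02 and 0.04 TPM, too few counts for a test.

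The substrates of the core complex were both low, and the enzyme that reverses the reaction was the highest member. Fancd2 had 0.59 and 0.50 TPM from 147 and 76 counts, and Fanci had 0.24 and 0.13 TPM from 71 and 30 counts. Exons of Fanci share 921 bases with exons of Polg on the opposite strand, which had 152.12 and 155.32 TPM. Whether the counting used strand is not stated, so reads of the overlap cannot be told apart between the genes. Usp1 had 158.63 and 191.00 TPM (chromosome 4, 98923810 to 98935543, plus strand). Of this level, 96.5% ± 0.141 (SD, n = 2) was assigned to a 317-base transcript with 45 coding bases, which held 55.8% and 54.7% of the gene's counts. Its full coding transcripts gave 5.79 and 6.58 TPM, close to the level of the higher core complex genes rather than far above them.

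The BRCA proteins and their partners had 3 of 5 genes at 1 TPM in both libraries and a median of 1.13 TPM. Brca1, a ubiquitin ligase that promotes resection of broken ends, stood at 4.66 TPM in replicate 1 and 2.06 TPM in replicate 2 (chromosome 11, 101488764 to 101551955, minus strand). A 539-base retained-intron transcript took 74.6% of the TPM, while the 6572-base coding transcript held 81.3% and 82.3% of the counts and 0.99 and 0.51 TPM. Bard1, the obligate partner of BRCA1, has a single transcript with a level in the tables and had 3.64 and 3.15 TPM. By full coding transcripts Bard1 therefore stood above Brca1 in both libraries. Palb2, the bridge between BRCA1 and BRCA2, had 1.19 and 1.06 TPM, with 0.59 and 0.28 TPM from full coding transcripts. Brca2, which acts at the start of strand exchange, had 0.35 and 0.29 TPM from 278 and 173 counts. Brip1, a helicase that binds BRCA1, had 0.19 and 0.05 TPM from 39 and 18 counts, with 0.07 and 0.05 TPM from its full coding transcript.

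Of the 5 end resection genes, 3 reached 1 TPM in both libraries, all of the MRE11 complex that holds and trims the broken ends. By full coding transcripts 2 of the 5 did. Mre11a, its nuclease, had 2.78 and 2.75 TPM, of which 2.72 and 2.75 TPM were full coding. Rad50, its ATPase, had 7.80 and 7.59 TPM, but a decay target of 3085 bases took 92.6% ± 0.438 (SD, n = 2) of this, and the full coding transcript had 0.43 and 0.35 TPM. Nbn, the subunit that recruits ATM, had 8.55 and 6.25 TPM, of which 1.49 and 1.45 TPM were full coding. The rest, 7.06 and 4.80 TPM, was a shorter protein-coding transcript below the 80% cut. It has 1645 coding bases, beside 2253 in the full coding one. By gene level Rad50 and Nbn stood above Mre11a, and by full coding level Mre11a was highest in both libraries. For Nbn this change rests on the 80% cut, since its shorter protein-coding transcript alone lies above Mre11a. Rbbp8, which encodes the resection factor CtIP, had 0.86 and 0.62 TPM. Exo1, an exonuclease for long resection, had 0.34 and 0.10 TPM from 60 and 42 counts, of which 0.09 and 0.10 TPM were full coding.

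Among the strand exchange genes, 4 of 7 reached 1 TPM in both libraries. Of the paralogs Rad51c, Rad51d, Xrcc2 and Xrcc3, which assist strand exchange, Rad51d had 3.95 and 3.38 TPM and Xrcc3 had 3.40 and 3.37 TPM. Xrcc2 stood at 5.99 TPM in replicate 1 and 1.33 TPM in replicate 2 (chromosome 5, 25689812 to 25705825, minus strand). A 464-base transcript had 5.17 and 0.92 TPM, and the full coding transcript had 0.80 and 0.38 TPM. The former held 38.9% and 18.1% of the Xrcc2 counts, and the latter held 60.6% and 78.4%. Rad51c had 0.57 and 0.42 TPM from 42 and 24 counts, all on 2 transcripts typed as decay targets, with 375 and 1014 coding bases. The paralogs therefore lay within a range of 0.42 to 5.99 TPM, and Xrcc2 was the one whose libraries lay farthest apart.

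Rad52, which anneals single strands, had 11.67 and 12.43 TPM, and all of it was assigned to retained-intron, non-coding and decay-target transcripts, so that its full coding transcripts were listed at 0. Rad54l, a motor protein that moves along DNA, had 0.60 and 0.53 TPM and shared 1184 exon bases with Lrrc41 on the opposite strand, which had 32.84 and 37.81 TPM. Rad54b, its relative, had 2.11 and 0.77 TPM from 74 and 20 counts, with a 434-base non-coding transcript at 1.76 and 0.71 TPM.

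Junction processing had the highest median of the 7 steps, 45.7 TPM, and all 3 of its genes passed 1 TPM. Slx4, the scaffold that holds structure-specific nucleases, had 50.58 and 52.98 TPM from 10166 and 9002 counts (chromosome 16, 3979105 to 4003770, minus strand). Its full coding transcript took 0.79% and 0.56% of those counts and 0.19 and 0.16 TPM. A decay target of 5116 bases held 53.1% and 62.5% of the Slx4 counts and led replicate 2 by TPM, while a retained-intron transcript led replicate 1. Mus81, a nuclease that cuts joined molecules, had 44.10 and 47.29 TPM, of which a decay target took 50.1% and full coding transcripts took 4.69 and 5.88 TPM. That decay target has 1506 coding bases, beside 1653 in the full coding transcript. Blm, the Bloom syndrome helicase that dissolves double Holliday junctions, had 22.65 and 16.07 TPM, and 99.4% of it was a single full coding transcript. By full coding level Blm stood above Mus81 and Slx4 in both libraries and was the highest member in replicate 1 and lay below Fance alone in replicate 2.

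The checkpoint kinases were the lowest step, with a median of 0.395 TPM and 1 of 4 genes at 1 TPM. Atr, the kinase that answers stalled forks, had 2.45 and 1.20 TPM, with 85.9% in a 982-base retained-intron transcript and 0.11 and 0.08 TPM in its full coding transcript. Chek2, the kinase downstream of ATM, had 0.77 and 0.31 TPM from a single transcript. Chek1, the kinase downstream of ATR, had 0.41 and 0.09 TPM from 36 and 14 counts. Atm, the kinase that answers double-strand breaks, stood at 0.16 TPM in replicate 1 and 0.27 TPM in replicate 2, although its counts went the other way, from 119 to 51. In replicate 2 a 602-base transcript with 4.49 counts took 68.8% of the Atm TPM, and the 10006-base coding transcript had 0.16 and 0.08 TPM. None of the 4 kinases reached 1 TPM by full coding transcripts.

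Between the libraries, 25 of 34 members tested (73.5%) had a ratio below 0, beside 52.6% of 10445 genes. The median log2 ratio of replicate 2 over replicate 1 was -0.28 over the members and -0.02 over all genes tested, and the median size of the ratio without its sign was 0.29 and 0.24. In a two-sided exact binomial test against the ratio of scaled totals, with Benjamini-Hochberg adjustment over all genes, 20 of 34 members were called (58.8%), which is near the 59.3% of genes called in all. By direction, 15 members (44.1%) were called lower in replicate 2, beside 30.4% of genes, and 5 members (14.7%) were called higher, beside 28.9% of genes. With the expected ratio of each gene taken from a trend on GC content, 11 members were called lower and 7 higher. The shares of all genes called under this trend are not given here, so no excess over them is read from these counts. The exact binomial test carries counting error only. At the spread between the libraries over all genes (a biological coefficient of variation of 18.9%), the negative binomial exact test in edgeR called 0 of 34 members, beside 0.900% of genes, with the smallest member adjusted p at 0.111 for Xrcc2. At an unadjusted p under 0.05 that test gave 5 of 34 members, beside 5.64% of genes.

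The members called lower came from every step. Xrcc2 (log2 ratio -1.39, 95% interval -1.76 to -1.04, exact binomial adjusted p = 1.36e-16), Rad54b (-1.41, 95% interval -2.23 to -0.71, 6.4e-05) and Chek2 (-1.23, 95% interval -1.82 to -0.70, 4.3e-06) were called with a ratio of at least 2-fold, a call that 2.71% of genes received in that direction. Brca1 followed at -0.90 (95% interval -1.13 to -0.68, exact binomial adjusted p = 6.71e-16) from 581 and 227 counts. The checkpoint kinases Atr (-0.87) and Atm (-0.76) were also lower, and Chek1 at -0.88 was not called (exact binomial adjusted p = 0.0728). Fanci (-0.78), Fancg (-0.55) and Fancd2 (-0.49) of the Fanconi steps, Rbbp8 (-0.41), Nbn (-0.36), Palb2 (-0.36), Fanca (-0.26) and Bard1 (-0.14) completed the lower group together with Blm. Blm had the smallest p of the members at a ratio of -0.43 (95% interval -0.49 to -0.37, exact binomial adjusted p = 4.11e-53), from 7506 and 4071 counts. The direction was therefore shared by genes of very different level. With the GC trend in the exact binomial test, the calls of Fancd2, Bard1, Palb2 and Rbbp8 were lost (adjusted p = 0.0916, 0.682, 0.207 and 0.237).

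The 5 members called higher in replicate 2 had small ratios and, apart from Fancm, high levels. They were Fance (0.30), Slx4 (0.28), Mus81 (0.28), Usp1 (0.21) and Fancm (0.19), with the 95% interval of Fancm at 0.05 to 0.32. Scaled by library totals alone, Fancm was not called (exact binomial adjusted p = 0.091). The 14 members not called spanned ratios from -0.88 for Chek1 to 0.11 for Fancf. Among them Rad50 (0.01, 95% interval -0.10 to 0.11) and Rad52 (0.02, 95% interval -0.14 to 0.18) had intervals narrow enough to bound a difference at well under 1.5-fold, while Rad51c (-0.34, 95% interval -1.14 to 0.40) and Brip1 (-0.64, 95% interval -1.56 to 0.18) did not. The rest (Fancc, Fancf, Fancl, Brca2, Mre11a, Exo1, Rad51d, Xrcc3 and Rad54l) had intervals that took in 0. Those of Fancc, Fancf, Brca2, Mre11a, Rad51d and Xrcc3 also stayed within 1.5-fold, and those of Fancl, Exo1 and Rad54l did not. With the GC trend, Mre11a and Rad50 were called higher (exact binomial adjusted p = 0.0456 and 0.0338). At this depth 14 members had under 100 counts in at least 1 library.

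**Figure D3:**
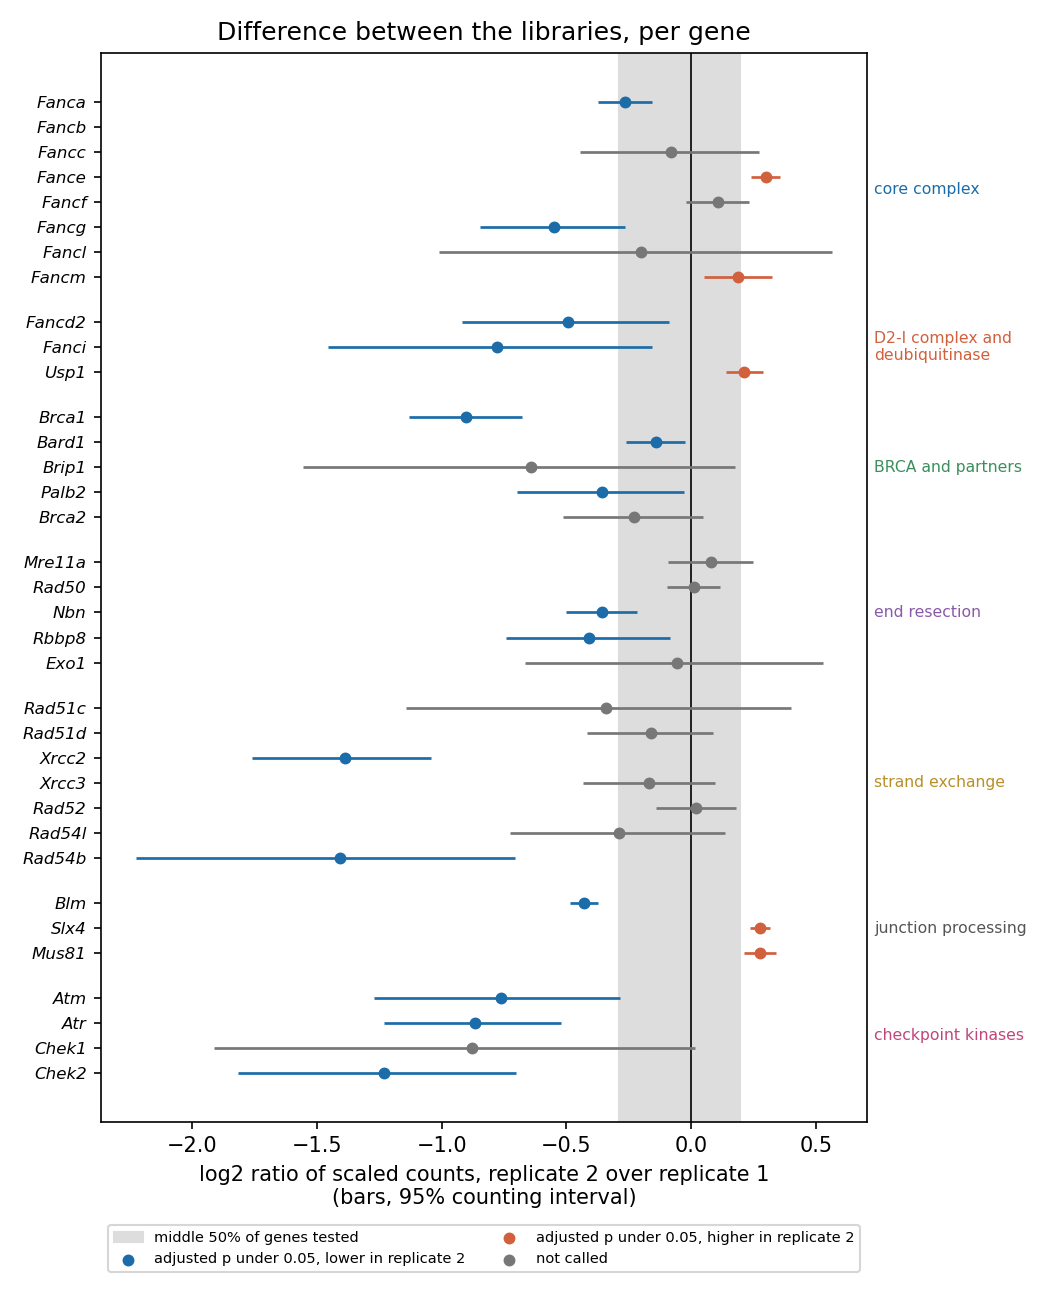
Log2 ratio of replicate 2 over replicate 1 for each tested member, with the 95% counting interval as a bar and the middle 50% of all genes tested (-0.29 to 0.20) as a grey band. Of the 34 members, 16 lie below the band and 4 above it, and Xrcc2, Rad54b and Chek2 lie farthest to the left.

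Cell cycle markers were compared between the libraries in the same way. Of 10 S-phase markers, 8 were called lower in replicate 2 and 1 (Ccne1, at 0.28) higher by the exact binomial test, beside 30.4% and 28.9% of all genes. Their median log2 ratio was -0.37, and their summed level was 773.21 and 611.12 TPM. Of 10 mitosis markers, 7 were called lower and 2 higher, with a median of -0.12 and a summed level of 1622.54 and 1610.52 TPM. In RNA from bulk cells, fewer cells in a phase and less RNA per cell cannot be told apart. The negative binomial exact test in edgeR called 0 markers of either list, beside 0.900% of all genes. Of the cell type markers tested, it called 4 of 4 myeloid and 1 of 4 megakaryocyte markers. It called 0 erythroid, lymphoid or progenitor markers. In that test 1 of 10 S-phase and 2 of 10 mitosis markers had an unadjusted p under 0.05, beside 5.64% of all genes. The part of cell cycle phase in the member ratios was not tested.

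Several members share their start region with a gene on the other strand, and the values of these neighbours are given beside theirs. Of 15 such pairs with starts within 1000 bases, the neighbour stood farthest above the member at Chek2, Brca1 and Fancd2. Hscb, which starts 202 bases from Chek2 and encodes a co-chaperone of iron-sulfur cluster assembly, had 63.27 and 59.71 TPM, 114 times the mean of Chek2. Nbr1, an autophagy receptor that starts 194 bases from Brca1, had 220.67 and 189.54 TPM, 61.0 times the mean of Brca1. Emc3, a subunit of a membrane protein insertion complex that starts 30 bases from Fancd2, had 14.29 and 15.18 TPM, 27.0 times the mean of Fancd2. In these pairs the member was called lower in replicate 2 and the neighbour was not. The log2 ratio was -0.05 for both Hscb and Nbr1 (exact binomial adjusted p = 0.283 and 0.0623), and Emc3 was called higher at 0.14 (exact binomial adjusted p = 0.00799).

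Npat, a coactivator of histone genes that starts 307 bases from Atm, was low as Atm was, at 0.57 and 0.37 TPM, and had a ratio of -0.56 (exact binomial adjusted p = 0.000741). Mospd2 beside Fancb had 0.60 and 0.34 TPM, and Brip1os beside Brip1 had 0.68 and 0.47 TPM. These neighbours were also called lower in replicate 2, at -0.79 and -0.45 (exact binomial adjusted p = 0.0227 and 0.0121). Pomgnt1 beside Rad54l (4.82 and 5.01 TPM), Zfyve21 beside Xrcc3 (5.81 and 5.65 TPM) and Dctn5 beside Palb2 (3.10 and 2.50 TPM) were higher than their members. Gas2 beside Fancf (1.66 and 1.69 TPM) and Ankrd49 beside Mre11a (0.67 and 0.50 TPM) were lower than theirs. Tex14 beside Rad51c and 1700065D16Rik beside Atr were listed at 0 TPM, 4930540M05Rik beside Rad52 had 0.01 TPM in each library, and Gm47870 beside Fancm was not analysed here.

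The level of the members also went with the base composition of their transcripts. The median GC content of the members' annotated transcripts was 46.1%, beside 51.0% over 9552 protein-coding genes tested, and 26 members lay below that median. All 10 members with a GC content of at least 50% reached 1 TPM in both libraries, and 10 of 25 members under 50% did, beside 42.4% and 28.6% of protein-coding genes in the same classes. By full coding transcripts the counts were 7 of 10 and 5 of 25. Across the 35 members, Pearson's r between GC content and log2 TPM was 0.579 and Spearman's rho was 0.548, and rho was 0.257 over the 9552 protein-coding genes. These are correlations across genes of the same libraries, which share their depth and preparation, and genes are not independent replicates. The library ratio went the same way. It was below 0 in 21 of 24 tested members under 50% GC and in 4 of 10 members above, with rho of 0.441 over members and 0.240 over the protein-coding genes tested.

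**Figure D4:**
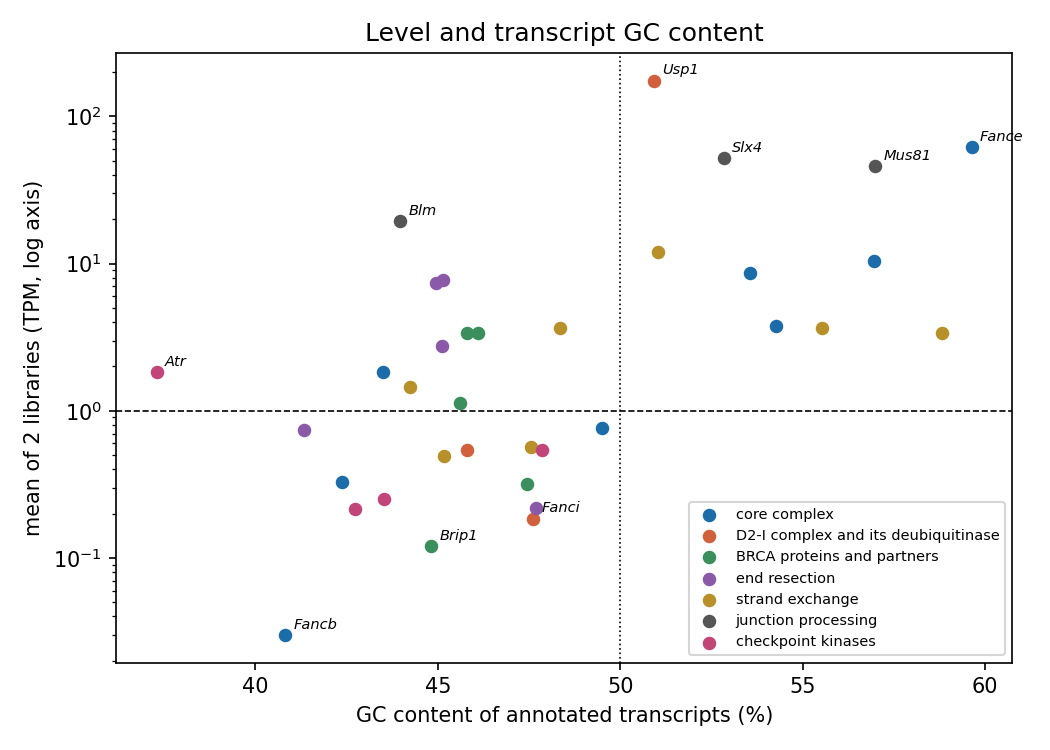
Mean level over the 2 libraries (TPM, log axis) against the GC content of annotated transcripts (percent), with one point per member coloured by pathway step, the dashed line at 1 TPM and the dotted line at 50% GC. The region under 1 TPM holds no member with a GC content above 50%, and Blm at 19.36 TPM is the highest member under 50% GC.

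Genes that work with the 35 members were listed as partners. Of 78 partners found, 66 reached 1 TPM in both libraries, beside 35.3% of protein-coding genes. Their median level was 7.07 TPM, and by the exact binomial test 37 of 76 tested were called lower and 11 higher in replicate 2, beside 30.4% and 28.9% of all genes. The 48 calls in all stand beside 59.3% of genes called. The highest were H2afx, the histone variant phosphorylated at breaks (469.16 and 572.46 TPM), Morf4l1, a chromatin reader that binds PALB2 (101.7 and 84.2 TPM), and Trp53, the p53 gene (88.48 and 90.93 TPM). For Morf4l1, full coding transcripts gave 18.0 and 19.44 TPM. The meiotic recombinase Dmc1 had 0 counts in both libraries. Partners called with a ratio of at least 2-fold were Sfr1, a recombination accessory factor (405 and 136 counts), Clspn, the claspin gene that links ATR to CHK1 (731 and 266 counts), and Polh, a translesion polymerase (249 and 88 counts), all lower in replicate 2.

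End joining, the other main route of break repair, had 8 of 15 genes at 1 TPM in both libraries and a median of 1.92 TPM, near the 1.83 TPM of the members. Both medians are over all transcripts of each gene. Among its higher genes were Xrcc1 (107.37 and 101.17 TPM) and Lig3 (31.95 and 40.12 TPM), which also act in single-strand break repair. Full coding transcripts gave all of the Xrcc1 level, but only 1.9 and 3.15 TPM for Lig3. Its lowest was Xrcc5, the gene of the end-binding subunit Ku80, with 0.40 and 0.22 TPM. By the exact binomial test 5 of 15 end-joining genes were called lower in replicate 2 and 2 higher, beside 30.4% and 28.9% of all genes, and none by 2-fold. With the negative binomial exact test in edgeR, 0 of 76 partners and 0 of 15 end-joining genes were called, beside 0.900% of all genes. An unadjusted p under 0.05 in that test was found for 8 of 76 and 0 of 15, beside 5.64% of all genes.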

How the data were processed

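Gene and transcript tables of 2 poly(A) RNA-seq libraries of 1 group were used. Per the deposited description files, values refer to mm10 and GENCODE M4. Aligner, quantifier and strand setting: not given in the sources used here. Expected counts, as deposited, are estimated fragments per gene or transcript, per the file headers. The deposited TPM and FPKM values are scaled for length and library total, per the file headers. The deposited percent values give each transcript's part of its gene's TPM.

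GENCODE M21, also on mm10, gave names, coordinates, transcript types, coding sequences and GC content; its models may differ from M4. It matched 42462 of 43346 gene rows, 21474 of them protein-coding. Left out were 26248 rows with a bare number as name and 97 spike-in rows. Expected counts were rounded to whole numbers. The library comparison was a two-sided exact binomial test at TMM-scaled totals (edgeR 4.0.16, R 4.3.3) over genes with at least 20 summed counts, Benjamini-Hochberg adjusted at 0.05, with exact 95% intervals and Python 3.11.15, scipy 1.17.1 and pandas 2.3.3. The steps were tested on simulated data. The negative binomial test used a common dispersion from an intercept alone. Alternatives were library totals, DESeq2 1.42.0 size factors, GC and length trends, other minimums, posterior means, FPKM and other thresholds. Full coding transcripts, the 2-fold call and the 50% GC split were added after seeing the data.

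All members were named, with the 3 highest and the lowest of the other lists, list genes called at 2-fold, and opposite-strand genes starting within 1000 bases; 1 of the 3 highest end-joining genes is not reported here. Rad51c and Fancg matches lie in annotated exons and were not printed. Members and lists were chosen with earlier results of these data known.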

Additional observations from a re-analysis of the deposited data

Results flagged for a closer look

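The 26248 rows named by a number only, which the comparisons do not use, held 5 counts in replicate 1 and 4 counts in replicate 2, summed over all of them. They are listed because a total of 0 allows up to 3 counts. There were no control samples to set them against, and nothing more is read from these totals.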

How the results depend on the processing

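The number of repair genes called between the libraries (20 of 34) was 18 to 20 under other scalings, count minimums, GC or length trends and posterior means, with 19 of 29 at a minimum of 100 counts. It was 0 with the negative binomial test and 3 with a 2-fold ratio added. The negative binomial test also gave 0 for the partners (48 otherwise) and 0 for end joining (7 otherwise). The members at 1 TPM numbered 10 at a threshold of 5 TPM and 12 by full coding transcripts, and 20 to 21 when each replicate was left out. Their median level was 5.59 TPM over members at 1 TPM alone and 0.53 TPM by full coding transcripts, and 1.33 to 2.45 TPM when each replicate was left out. The same leading transcript held for 5 of 6 members at 10 TPM. No called ratio of a member changed sign under the settings run. Among those not called, the ratios of Rad50 (-0.05) and Rad52 (-0.04) were below 0 with library totals, and that of Exo1 (0.03) was above 0 with the GC trend. Single calls of Fancm, Fancd2, Bard1, Palb2 and Rbbp8 were lost, and those of Fancf, Mre11a and Rad50 gained, under at least 1 of these scalings, trends or minimums; the cause was not tested. No paired analysis was possible because there is 1 group, whose replicate numbers have no counterpart. Low counts limit most the ratios of members under 100 counts.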
